A study of Rattus norvegicus with 7 samples.

Results

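Wdpcp, Ppp4r4, Slc38a4 and Bsn are 4 genes whose RNA was lower in every UVB-irradiated rat meibomian gland than in every untreated gland. They were picked from that very contrast, by their symbols, out of 17246 genes with values, so their difference between the groups is described here and carries no test. Meibomian glands of the eyelid were dissected from wild-type female Sprague-Dawley rats of 3 months and profiled by RNA sequencing. The control group had no treatment (n = 4), and the UVB group had its upper eyelids shaved and exposed to ultraviolet B at 300 mJ/cm2 for 5 min a day on 5 days (n = 3). Every sample carries the same written protocol, so whether controls were shaved is not stated, nor is the time from the last exposure to dissection. Each column name carries a different number whose meaning is not stated, and the labels name no litters, batches or separate animals, so p-values measure the spread between these libraries, which may be technical in part. Libraries are lettered in column order (control a, b, c, d and UVB a, b, c), values are given in that order, and equal letters do not pair libraries.

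The 4 genes act in unrelated systems. Wdpcp encodes a WD repeat protein of the CPLANE complex, which works with Intu and Fuz to build the primary cilium and to orient cells within a sheet. Ppp4r4 encodes a regulatory subunit that binds the catalytic subunit of protein phosphatase 4, a serine/threonine phosphatase. Slc38a4 encodes a sodium-coupled transporter of neutral amino acids, best known from liver and placenta. Bsn encodes bassoon, a very large scaffold protein of the active zone, where neurons release transmitter. The meibomian gland is a holocrine sebaceous gland whose cells fill with lipid and break up to form the oily layer of the tear film.

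Library totals ran from 20680237 to 28784941 counts. The tissue label was matched by its markers: all 10 meibocyte markers were tested, and the desaturase gene Scd lay between 71265 and 90848 CPM over the 7 libraries. CPM here is a count scaled to library size after TMM normalisation, as a rate per 1e6 counts. Of the neuronal genes in the nerve list, Nefl and Nefm had at most 2 counts in any library, while Prph and Uchl1 reached 30 and 115.

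The promoters of the 4 genes are shown because the genes moved the same way, so that their sequences can be compared. Each line gives the 250 bases before the RefSeq start in assembly GRCr8, read along the gene; the submitters' processing notes name another build, rn7, to which these positions do not carry over. The windows are chr14:99847294-99847543 (plus strand) for Wdpcp, chr6:128427759-128428008 (plus strand) for Ppp4r4, chr7:130082170-130082419 (minus strand) for Slc38a4 and chr8:117754413-117754662 (minus strand) for Bsn. Capitals mark matches, on both strands, to 9 motifs, which were chosen after the sequences had been displayed. The matches were CCAAT in Wdpcp and Slc38a4 and a GC box in Ppp4r4, and Bsn had none.
Wdpcp: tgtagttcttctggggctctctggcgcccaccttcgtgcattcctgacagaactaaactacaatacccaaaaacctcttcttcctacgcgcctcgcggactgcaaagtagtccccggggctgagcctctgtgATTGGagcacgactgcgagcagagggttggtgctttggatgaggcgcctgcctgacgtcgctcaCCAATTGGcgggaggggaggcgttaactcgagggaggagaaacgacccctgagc
Ppp4r4: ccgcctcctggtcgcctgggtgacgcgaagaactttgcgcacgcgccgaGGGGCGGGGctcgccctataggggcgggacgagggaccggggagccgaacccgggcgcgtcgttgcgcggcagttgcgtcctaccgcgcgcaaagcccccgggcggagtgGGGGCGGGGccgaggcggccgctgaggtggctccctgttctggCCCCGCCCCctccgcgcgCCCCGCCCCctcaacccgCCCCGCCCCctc
Slc38a4: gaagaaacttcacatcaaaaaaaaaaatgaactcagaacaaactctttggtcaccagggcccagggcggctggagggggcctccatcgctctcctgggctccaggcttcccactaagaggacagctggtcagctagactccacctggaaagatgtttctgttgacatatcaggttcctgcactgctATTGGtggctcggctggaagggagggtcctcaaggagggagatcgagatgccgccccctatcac
Bsn: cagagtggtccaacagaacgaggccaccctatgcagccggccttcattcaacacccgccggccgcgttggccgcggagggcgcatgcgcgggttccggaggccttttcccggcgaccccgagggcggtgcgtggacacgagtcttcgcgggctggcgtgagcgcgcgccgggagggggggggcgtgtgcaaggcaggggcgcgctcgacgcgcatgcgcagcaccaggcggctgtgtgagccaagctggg

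The promoters differed in composition. That of Slc38a4 had 54.4% G and C and 5 CpG pairs, an observed to expected CpG ratio of 0.270 at percentile 37.7 of all 33469 promoters in the table. That of Bsn had 72.8% G and C and 33 CpG pairs, a ratio of 1.01 at percentile 95.1. Ppp4r4 had 78.4% and 37 CpG pairs (ratio 0.964), and Wdpcp had 58.4% and 16 (ratio 0.751). The CCAAT box (CCAAT) was found at 3 places in Wdpcp, 2 of them overlapping on opposite strands, and at 1 place in Slc38a4, and 34.0% of all promoters of this length hold it. The GC box (GGGGCGGGG), added last for its repeats in Ppp4r4, occurred at 5 places in Ppp4r4 and in 9.0% of all promoters. Not found in any of the 4 windows were the TATA box TATAAA (12.9% of promoters), the E-box CACGTG (5.59%), the AP-1 site TGANTCA (6.34%), the cAMP response element TGACGTCA (1.59%), the amino acid response core TGATGNAA (3.403%), the RFX core GTTGCC (9.89%) and the RE1 core TTCAGCACC (0.305%). No motif was common to the 4 windows.

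Wdpcp (NCBI gene 305552) was the steadiest of the 4. It measured 79.2, 76.9, 76.7 and 86.8 CPM in the controls and 46.5, 42.7 and 41.3 CPM in the UVB libraries. The groups lay far apart against their own spread, the lowest control being 1.65 times the highest UVB library. The means were 79.9 ± 4.73 CPM (SD, n = 4) and 43.5 ± 2.69 CPM (SD, n = 3), so UVB glands held 54.4% of the control level. Its log2 fold change was -0.88 (SE 0.071). In bulk tissue, fewer cells that express a gene and less RNA per cell cannot be told apart, and this holds for each of the 4 genes.

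Ppp4r4 (NCBI gene 500711) measured 38.2, 35.3, 42.1 and 42.6 CPM in the controls and 19.96, 18.9 and 16.1 CPM in the UVB libraries. Again no library of one group reached the other, and the lowest control was 1.77 times the highest UVB library. UVB glands held 46.3% of the control level, with means of 39.6 ± 3.44 CPM (SD, n = 4) and 18.3 ± 1.99 CPM (SD, n = 3) and a log2 fold change of -1.11 (SE 0.10).

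Slc38a4 (NCBI gene 170573) differed more and varied more, and UVB glands held 20.7% of the control level. It measured 54.1, 99.0, 113.9 and 102.1 CPM in the controls, and 26.0, 12.6 and 18.8 CPM in the UVB libraries. Control a stood well below the other controls, at 58.6% of the control mean, yet still at 2.08 times the highest UVB library. The means were 92.3 ± 26.3 CPM (SD, n = 4) and 19.1 ± 6.70 CPM (SD, n = 3), with a log2 fold change of -2.28 (SE 0.33).

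Bsn (NCBI gene 29138) was scarce in every gland, and UVB glands held 7.04% of the control level. The controls held 70, 64, 136 and 83 counts, or 3.27, 2.99, 4.69 and 3.55 CPM, and the UVB libraries held 8, 7 and 3 counts, or 0.379, 0.271 and 0.116 CPM. UVB c was at the floor of 3 counts used here and the other UVB libraries were above it, so the fold is an estimate and not a bound. Pooled over libraries, 353 control counts stood against 18 UVB counts, a ratio of 15.01 once scaled to library size. This ratio is a description only, since Bsn was picked for the difference. The log2 fold change was -3.84 (SE 0.35), and on the log2(TPM + 1) scale without a filter it was -0.51, since all values of Bsn lie below 1 TPM.

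**Figure D1:**
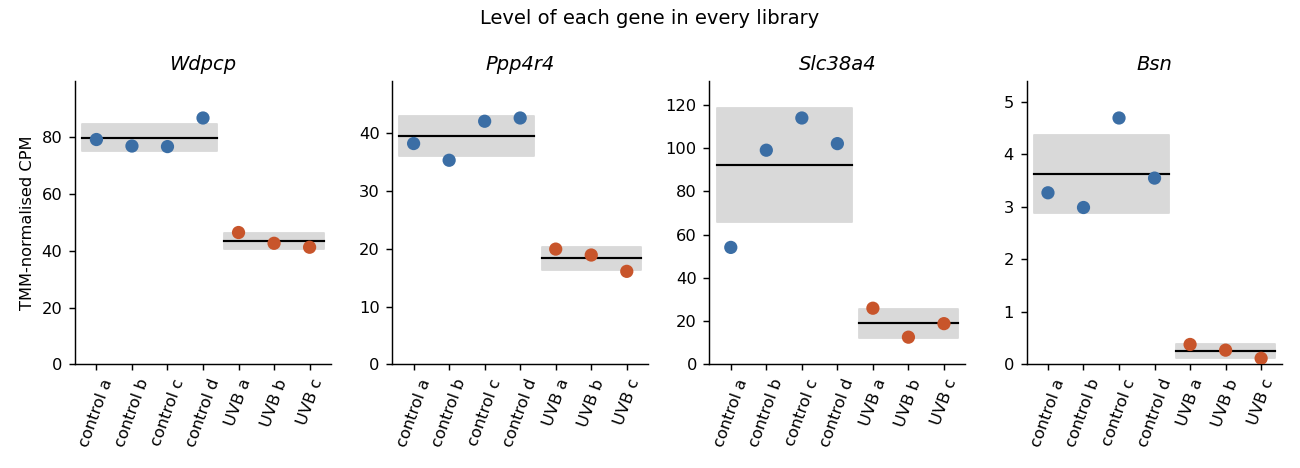
TMM-normalised CPM (y axis, linear from 0) of Wdpcp, Ppp4r4, Slc38a4 and Bsn in 4 control libraries (blue) and 3 UVB libraries (orange); black lines are group means and grey bands 1 SD on each side. In each panel every orange point lies below every blue point, and control a is the low control of Slc38a4 at 54.1 CPM.

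All 4 genes had every UVB library below every control, as did 13.8% of the 13709 genes tested; they were picked for this. The word consistent holds for the direction and less so for the size. The SD within groups of log2 CPM, taken with a prior count of 2, was 0.085 for Wdpcp and 0.14 for Ppp4r4. These lay at percentiles 21.1 and 48.5 of all genes tested. For Slc38a4 it was 0.50 and for Bsn 0.45, at percentiles 93.3 and 91.2, so both varied more between libraries than most genes. The percentiles cover genes of all depths. Bsn held 8, 7 and 3 counts in the UVB libraries, where counting error adds to the SD, and its share was not separated. The prior count narrows the spread at such low counts, so the order of Bsn and Slc38a4 by SD may depend on it. Counted from the most lowered gene, Bsn held place 4, Slc38a4 place 18, Ppp4r4 place 250 and Wdpcp place 474 by log2 fold change. Among UVB libraries, UVB a was the highest for each of the 4 genes, while the lowest was UVB c for Wdpcp, Ppp4r4 and Bsn and UVB b for Slc38a4.

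**Figure D2:**
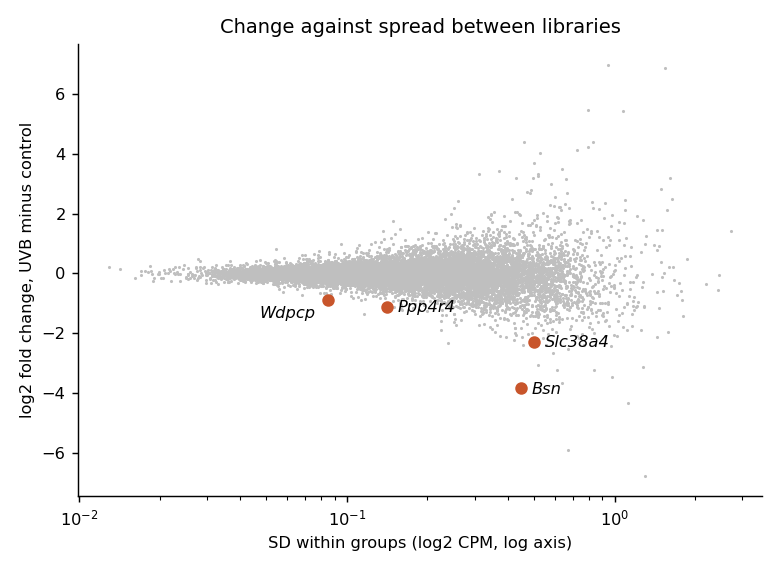
Log2 fold change, UVB minus control (y axis), against the SD within groups of log2 CPM (x axis, log scale) for all 13709 genes tested (grey) and the 4 genes named (orange). Log2 CPM was taken with a prior count of 2. Wdpcp and Ppp4r4 changed by less and lie at an SD of 0.085 and 0.14, while Slc38a4 and Bsn lie at 0.50 and 0.45.

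The genes also held different places in the untreated gland. By mean TPM, a level corrected for transcript length, Slc38a4 measured 79.6 ± 23.4 TPM (SD, n = 4) in controls, at percentile 89.8 of all genes. Wdpcp measured 48.6 ± 2.64 TPM (SD, n = 4), at percentile 83.7, and Ppp4r4 19.4 ± 1.83 TPM (SD, n = 4), at percentile 66.2. Bsn measured 0.468 ± 0.106 TPM (SD, n = 4), at percentile 21.9. After UVB, Wdpcp led at 26.5 ± 2.07 TPM (SD, n = 3), above Slc38a4 at 16.6 ± 6.08 TPM (SD, n = 3). Control a alone had Slc38a4 (46.0 TPM) below Wdpcp (47.6 TPM), so the order of these neighbours in controls does not hold beyond their spread.

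The ratio of count to TPM is drawn from the same values as the levels by which the genes were chosen. It follows the transcript length that the authors' processing assigned in each library. Scaled to the median of 11951 well-measured genes, it was for Wdpcp 1.05 ± 0.00243 in the controls (SD, n = 4) and 1.06 ± 0.00474 in the UVB libraries (SD, n = 3). It was 1.308 ± 0.00494 and 1.304 ± 0.0082 for Ppp4r4, and 0.745 ± 0.00042 and 0.746 ± 0.00126 for Slc38a4, with the same n. The groups were not told apart in any of the 3 (exact two-sided permutation p = 0.229, 0.486 and 0.200, or 0.343, 0.486 and 0.343 after Benjamini-Hochberg adjustment over 3, where 0.0286 is the smallest p that 35 splits allow). A gene that differed alone could not pass 0.05 after this adjustment. The test therefore cannot show that the ratio was unchanged. The group difference of this ratio was 0.0054 or less in size on the log2 scale. The ratio moves little for most genes, with a median log2 range over the 7 libraries of 0.012. By that range Wdpcp, Ppp4r4 and Slc38a4 lay at percentiles 53.3, 59.5 and 21.0 of the 11951 genes. A small difference is therefore common and does not set these 3 genes apart. Bsn, at 4.99 ± 0.0454 (SD, n = 4) in controls the longest of the 4, had too few UVB counts for this ratio. Counts of the 4 genes were exact whole numbers in all 7 libraries, while 12.5% of all deposited count values were not.

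None of the measured genes beside the 4 on the chromosome was called lower. Wdpcp and Mdh1, which encodes cytosolic malate dehydrogenase, start 317 bases apart on opposite strands in GRCr8, and their promoter windows of 300 bases share 184. Mdh1 measured 932, 840, 858 and 904 CPM in the controls and 836, 1079 and 846 CPM in the UVB libraries. Its groups overlapped. It differed by 0.059 on the log2 scale (SE 0.10, edgeR adjusted p = 0.739), a value which turned to -0.067 without UVB b. On the other side of Wdpcp the nearest measured gene was Ehbp1 (-0.16, SE 0.11, adjusted p = 0.368).

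Bsn lies between Apeh, which encodes an acylpeptide hydrolase, and Dag1, which encodes dystroglycan. Apeh lay at 80.7 to 85.5 CPM in controls and at 71.9 to 79.4 CPM after UVB, without overlap, with a fold change on the log2 scale of -0.13 (SE 0.058, edgeR adjusted p = 0.174). Dag1 had one of -0.090 (SE 0.062, adjusted p = 0.364). The measured genes nearest to Slc38a4 were its relative Slc38a2 (0.16, SE 0.069, adjusted p = 0.166) and Amigo2 (0.39, SE 0.29, adjusted p = 0.405). Of those nearest to Ppp4r4, Ifi27l2b rose by 0.51 (SE 0.12, adjusted p = 0.0232), and 4 of 17 alternatives lost that call (adjusted p up to 0.0739), and Serpina6 had at most 1 count in a library. Slc38a4 overlaps the noncoding genes LOC108351545 and LOC108351546 in GRCr8, and Wdpcp overlaps the pseudogene LOC120093047. The handling of strand is not given in the sources used here, and overlap was judged by whole gene spans, not exons. Whether reads of Slc38a4 and of these partners were kept apart is therefore not known.

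Slc38a4 was set beside the other transporters of its family, which move neutral amino acids across the plasma membrane or the lysosome. In TPM it was the most abundant of the 11 family genes in control c and came after Slc38a2 alone in the other controls. In UVB a, b and c it held places 3, 5 and 4. Its share of the family's summed TPM was 20.9%, 32.1%, 35.8% and 33.0% in the controls and 10.97%, 5.23% and 7.85% in the UVB libraries. Slc38a2, the other abundant member, measured 91.3 ± 2.66 TPM (SD, n = 4) and 102.1 ± 7.72 TPM (SD, n = 3).

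The remaining family genes did not pass the threshold either. The glutamine transporter gene Slc38a1 stood at a log2 difference of 0.17 (SE 0.21, edgeR adjusted p = 0.619), and Slc38a5 at one of 0.99 (SE 0.36, adjusted p = 0.104) at 0.415 ± 0.106 TPM (SD, n = 4) in controls. Slc38a10 (0.19, SE 0.061, adjusted p = 0.0676), Slc38a6 (-0.30, SE 0.10, adjusted p = 0.0761), Slc38a7 (-0.17, SE 0.072, adjusted p = 0.151), Slc38a9 (-0.11, SE 0.090, adjusted p = 0.470), Slc38a3 (0.021, SE 0.14, adjusted p = 0.940) and Slc38a8 (0.13, SE 0.24, adjusted p = 0.764) made up the rest of those tested. Every UVB library was below every control for Slc38a6 and Slc38a7, as for 13.8% of all genes tested. For Slc38a10 every UVB library was above every control, as for 12.8%. The groups overlapped for the other relatives tested. Slc38a11 had at most 12 counts in a library and was not tested.

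**Figure D3:**
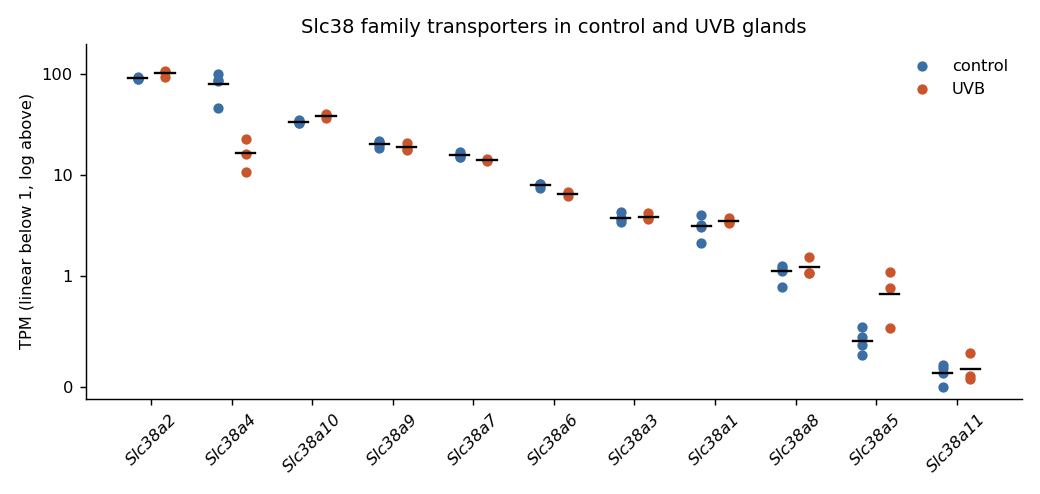
TPM (y axis, linear below 1 and log above) of the 11 Slc38 genes, ordered by their control mean, with each control library in blue, each UVB library in orange and black lines at the means. Slc38a4 drops from a mean of 79.6 to 16.6 TPM, while Slc38a2 stays between 89.1 and 108.2 TPM in all 7 libraries.

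Over a list of 30 amino acid transporter genes that leaves out Slc38a4, 29 were tested, of which 3 were called higher and 2 lower. Over all genes tested 13.0% were called in either direction, 6.30% higher and 6.74% lower. Every UVB library was above every control for 4 of the 29, against 12.8% of all genes, and below for 5, against 13.8%. The list's median log2 fold change was 0.031, beside -0.0058 for all genes. Slc6a14, a broad transporter of neutral and basic amino acids, rose by 0.52 (SE 0.072, edgeR adjusted p = 0.00409), and the arginine transporter genes Slc7a1 (0.52, SE 0.097, adjusted p = 0.0109) and Slc7a7 (1.12, SE 0.22, adjusted p = 0.0139) rose as well. Slc43a2, a transporter of large neutral amino acids, fell by 0.92 (SE 0.14, adjusted p = 0.00706). Slc7a2, another transporter of basic amino acids, fell by 0.60 (SE 0.15, adjusted p = 0.0294), a call that 7 of 17 alternatives lost (adjusted p up to 0.0913).

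Slc43a2 was also the gene whose pattern was most like that of Slc38a4. It measured 88.7, 110.1, 115.05 and 107.3 CPM in the controls and 67.9, 45.4 and 53.6 CPM in the UVB libraries. As with Slc38a4, control a was its lowest control and UVB b its lowest UVB library. Pearson's r of log2 CPM over the 7 libraries was 0.994, and Tshz2 and Ctc1 followed, both at 0.994. These values describe 7 libraries that fall into 2 groups, so they follow the group difference first, and the genes were chosen for them among 11322.

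The other subunits of the phosphatase that Ppp4r4 belongs to did not pass the threshold. The catalytic subunit gene Ppp4c measured 74.1 ± 3.62 TPM (SD, n = 4) and 76.6 ± 1.67 TPM (SD, n = 3), a log2 difference of 0.041 (SE 0.066, edgeR adjusted p = 0.726). The other regulatory subunit genes were Ppp4r1 (0.16, SE 0.067, adjusted p = 0.145), Ppp4r2 (0.13, SE 0.079, adjusted p = 0.301), Ppp4r3a (0.024, SE 0.054, adjusted p = 0.804) and Ppp4r3b (-0.0010, SE 0.070, adjusted p = 0.995). Per length, Ppp4r4 was the lowest of these subunits in controls, at 19.4 TPM against 26.5 to 34.0 TPM for the other 4 regulatory genes. Of 21 genes of this and related phosphatases 1 was called, beside 13.0% over all genes, and the median was 0.0092. It was Lcmt1, a methyltransferase that acts on the catalytic subunit of phosphatase 2A, which fell by 0.57 (SE 0.14, adjusted p = 0.0280) and missed the threshold under 6 of 17 alternatives (adjusted p up to 0.0843).

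The genes of the CPLANE complex that work with Wdpcp did not pass either. Intu (0.22, SE 0.14, edgeR adjusted p = 0.350), Fuz (-0.24, SE 0.15, adjusted p = 0.295), Cplane1 (-0.29, SE 0.13, adjusted p = 0.172) and Cplane2 (0.28, SE 0.19, adjusted p = 0.345) encode its partners in the CPLANE complex. In controls they measured 1.72 to 9.67 TPM on average, against 48.6 TPM for Wdpcp. Every UVB library was below every control for Cplane1 and above every control for Intu, while the groups overlapped for Fuz and Cplane2. Of 35 tested genes of ciliogenesis and planar polarity 1 was called, beside 13.0% over all genes, and the median was -0.098. That gene, Arl13b, encodes a small GTPase of the ciliary membrane and fell by 0.75 (SE 0.15, adjusted p = 0.0133). Its CPM was 17.6, 23.5, 20.8 and 20.3 in the controls and 13.4, 9.44 and 13.7 in the UVB libraries, with no overlap, and the call was lost under 1 of 17 alternatives (adjusted p = 0.0510).

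Of 33 genes of the active zone and of vesicle release with values, 24 were tested, and several close partners of bassoon were not. Pclo, which encodes its relative piccolo, had at most 6 counts in a library, and Erc2, Rims1, Syp and Snap25 had at most 9, 13, 11 and 1. Erc1, a broadly expressed active zone gene, measured 11.5 ± 1.25 TPM (SD, n = 4) and 10.4 ± 0.727 TPM (SD, n = 3) and did not pass (-0.14, SE 0.087, edgeR adjusted p = 0.333). Of the 24 tested, 2 were called higher and 4 lower, beside 6.30% and 6.74% over all genes, with a median of -0.12. Vamp2, a vesicle fusion protein found in many cell types, fell by 0.41 (SE 0.067, adjusted p = 0.00752). Ppfia4 fell by 0.94 (SE 0.24, adjusted p = 0.0346) and the calcium channel gene Cacna1b rose by 0.70 (SE 0.18, adjusted p = 0.0332), calls lost under 7 of 14 and 6 of 15 alternatives (highest adjusted p 0.211 and 0.0930). Tspoap1, which encodes a binding protein of the active zone scaffold, fell by 0.65 (SE 0.18, adjusted p = 0.0404); it lies outside the rule for named genes and was added after its values were seen.

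**Figure D4:**
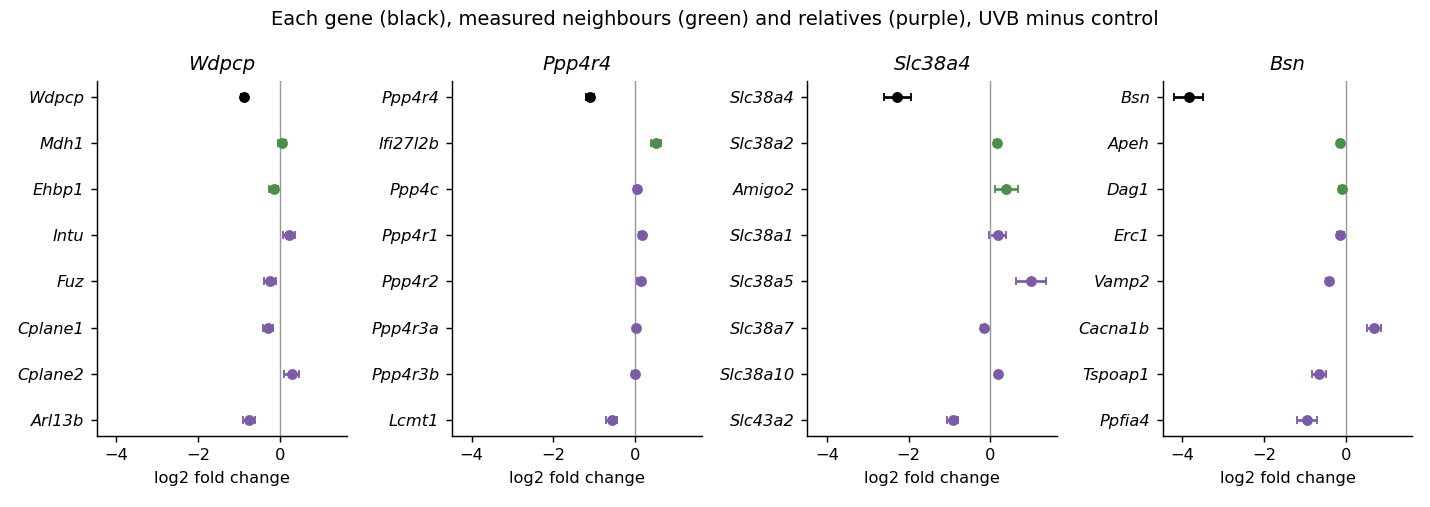
Log2 fold change, UVB minus control (x axis), with SE as bars for Wdpcp, Ppp4r4, Slc38a4 and Bsn (black), their nearest measured neighbours (green) and a selection of genes of the same family, complex or process (purple). Each black point lies left of its neighbours and relatives, between -0.88 and -3.84.

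Marker sums of cell types in the gland were lower after UVB, higher or overlapping between the groups, depending on the list. Summed CPM of 13 nerve and Schwann cell markers ran from 180 to 213 in controls and from 129 to 156 after UVB, with 2 of 10 tested markers called lower. Sums of 7 adipocyte markers (127 to 168 against 110 to 115 CPM) and of 4 melanocyte markers (86.4 to 168 against 63.7 to 74.7 CPM) were also lower without overlap, with 2 of 6 and 2 of 4 tested markers called lower. Most of the adipocyte sum was Plin4, at 93.0 to 120 against 79.4 to 83.3 CPM. Plin4 and Cidec were the adipocyte markers called, while Lipe, Fabp4, Adipoq and Plin1 did not pass. Hair follicle markers overlapped, at 801 to 1112 against 313 to 861 CPM, with 3 of 9 called lower. Endothelial markers were higher without overlap, at 85.3 to 104 against 119 to 138 CPM, with 2 of 5 called higher. Overlapping sums were those of meibocytes (95730 to 118820 against 91499 to 112571 CPM, 3 of 10 called lower), skeletal muscle (2412 to 3244 against 1642 to 2880 CPM, 1 of 7 called lower), epidermis (12989 to 15938 against 15215 to 17915 CPM, 1 of 8 called higher and 2 lower) and, from the list for conjunctival goblet cells, 4 markers (3677 to 4943 against 4539 to 5731 CPM). Nearly all of that last sum was Krt13 and Krt4, keratins of mucosal epithelium, while the goblet cell genes Spdef and Tff1 had at most 2.04 and 0.154 CPM. The sums of fibroblast markers (2466 to 3814 against 2515 to 4169 CPM) and leukocyte markers (70.7 to 129 against 98.3 to 174 CPM) overlapped too, with 3 of 6 and 3 of 9 called higher. In the epidermal list Krt77, a keratin gene singled out after its values were seen, fell by 5.90 on the log2 scale (edgeR adjusted p = 0.00348), from 27.2 to 85.0 CPM in controls to 0.465 to 1.04 CPM. Over all genes tested 6.74% were called lower and 6.30% higher. The part of these shifts in the lower levels of the 4 genes was not tested.

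Over the 7 libraries the 4 genes were alike in pattern, with Pearson's r between 0.934 and 0.995 for their 6 pairs, as a description of genes picked for the same contrast. The gene most like Bsn was Ppp4r4 (0.995), followed by Adgrv1 (0.994, log2 fold change -1.23) and Prrc2b (0.993, log2 fold change -0.25). Most like Ppp4r4 were Smad1 (0.998), Macrod1 (0.997) and Ldhb (0.996), and most like Wdpcp were Ldhb (0.995), Smad1 (0.993) and Gps2 (0.992). The changes of these 4 genes were small beside those of Wdpcp and Ppp4r4, from -0.14 (Smad1) to -0.32 (Macrod1), since a correlation does not read the size of a change. Smad1 did not pass the threshold (edgeR adjusted p = 0.119). Gps2 (adjusted p = 0.0330) lost its call under 6 of 17 alternatives (adjusted p up to 0.0915), and Prrc2b under 3 of 17 (up to 0.0689).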

How the data were processed

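RNA sequencing values of 4 control and 3 UVB meibomian glands were used. One table that the authors deposited holds expected counts, not normalised, and the other holds the authors' TPM; 12.5% of the deposited counts were not whole. FastQC, Trimmomatic, DRAGEN, Picard and the build rn7 are named, per the submitters' processing notes, without roles; annotation and strand handling are not given in the sources used here. Unquoted commas in gene names shift cells in 2281 rows, so values were read from the right end of each row, and 5 rows lacking a value were left out. Column names give the group of a library but not its number. Libraries of one group differed beyond sampling noise (chi-square per degree of freedom at least 10.9).

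Counts were rounded and tested in edgeR 4.0.16 (R 4.3.3) by the quasi-likelihood test with robust estimation, TMM factors and filterByExpr, on all genes, with Benjamini-Hochberg adjustment over the 13709 tested and a threshold of 0.05; the design had named raw counts, and the test was kept. SE is the absolute log2 fold change over the square root of F. Log2 CPM, used for the SD within groups and for correlations, was taken with a prior count of 2. On simulated data with 200 genes changed by 2-fold, edgeR recovered 95.5% and 4.98% of its calls were false. The simulation gave every gene the same dispersion and changed only genes with a mean count of at least 50. Its rates therefore need not hold for the real data. The alternatives run were limma-voom (limma 3.58.1), DESeq2 1.42.0, other scaling factors, other filters, limma on log2(TPM + 1) or log2(TPM + 0.1), and leaving out each library. The members and lists were chosen with earlier results of these data known. Named were the 4 genes, called list members (at most 5 a list), neighbours in RefSeq GRCr8 and the 3 genes most alike in pattern (mean count of at least 50); family and complex members were added for their relation to the 4, and some called list members are not reported here. Promoters are from RefSeq GRCr8, where 4 of 4 genes matched; no count was placed by these coordinates.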

Additional observations from a re-analysis of the deposited data

Results flagged for a closer look

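Of 48 values compared over the 4 controls, 1 had a library apart from the others, where chance gives about 2.4. It was Serpina6, a neighbour of Ppp4r4, at 0.0345 CPM in control c, which is a single count, and at 0 in the other controls. Chance places about 1 group in 20 apart in this way.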

How the results depend on the processing

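The log2 fold changes of the 4 genes kept their sign in every alternative that could be fitted, and moved by less than the SD within groups in all but 1: Bsn gave -0.51 under log2(TPM + 1) without a filter, where the pseudocount exceeds its values. With the TPM filter Bsn was left out. Leaving out each library gave -0.93 to -0.83 for Wdpcp, -1.18 to -1.03 for Ppp4r4, -2.55 to -2.04 for Slc38a4 and -4.20 to -3.48 for Bsn. Genes called rose from 1787 to 2451, and those lower from 924 to 1233, under DESeq2. They fell to 1137 and 521 under log2(TPM + 1) without a filter. Without single libraries they ran from 851 (without control c) to 1898 and from 430 to 971. The presynaptic list had 2 calls under log2(TPM + 1), 2 under log2(TPM + 0.1), 3 under log2(TPM + 1) without a filter, and 3 to 5 without single libraries, against 6. The cilium list had 0 calls under log2(TPM + 1) without a filter and 1 to 2 without single libraries; the phosphatase list had 2 under DESeq2, 0 under log2(TPM + 1) without a filter and 0 to 2 without single libraries, both against 1. The transporter list had 4 to 5 calls without single libraries, 7 under DESeq2, 6 under upper quartile factors and under library size alone, 4 under log2(TPM + 1) without a filter, and 5 otherwise. The cause of these moves was not tested. The length ratio of Ppp4r4 turned from -0.0043 to 0.00080 without UVB c (range over single libraries left out -0.0075 to 0.00080) and the fold of Mdh1 to -0.067 without UVB b (range -0.067 to 0.12). By CPM in place of TPM the control percentiles were 84.6 for Wdpcp, 71.5 for Ppp4r4 and 35.1 for Bsn, and among tested genes 79.6, 57.5 and 3.67, by construction of the length scale and of the genes ranked. No paired analysis was possible because column names give a group without its sample numbers. Depth limits Bsn, with 18 counts in all UVB libraries.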
